A study of Mus musculus with 24 samples.

Results

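The genes described here move iron, manganese and zinc into, out of and within intestinal cells. They are 10 of the 55487 genes listed in the tables of this series: Slc11a2, Cybrd1, Tfrc, Slc40a1, Heph, Cp, Fth1, Slc30a10, Slc39a14 and Slc39a4. They were chosen because Slc11a2, Slc30a10 and Cp had differed between the genotypes in these same data. Differences between mutant and wild type are therefore given as a description, with no p-value, for all 10 genes and for tumours as well as colon. How many members were past the threshold is printed only beside the same share of all genes. The comparisons of damaged colon or tumour with untreated colon were tested. For Slc11a2, Slc30a10 and Cp the p-values of these comparisons are not independent of the choice, because libraries are shared.

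RNA was sequenced from colon and colorectal tumours of C57BL/6 mice, either wild type (WT) or lacking Axin1 in the intestinal epithelium (KO). The Axin1 protein holds together the complex that tags beta-catenin for destruction and so restrains Wnt signalling. Each genotype has 4 groups of 3 libraries, stated to be biological replicates: untreated colon, colon at day 7 and at day 13 of a colitis model made with dextran sulfate sodium (DSS, a polymer that injures the colonic epithelium), and tumours from mice given azoxymethane (AOM, a carcinogen) with DSS. The deletion spares all cells outside the epithelium, and the samples are whole tissue, so fewer cells of a type and less RNA per cell cannot be told apart. The Cre driver, the age of the mice, the alleles of the WT mice and the doses were not given in these sources.

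Dietary iron is reduced at the apical surface by the ferrireductase Cybrd1 (DCYTB) and enters with protons through Slc11a2 (DMT1), which also carries manganese. Tfrc, the transferrin receptor, takes up iron from the blood side in most cells, Fth1 is the ferritin heavy chain that oxidises and stores iron, and Slc40a1 (ferroportin) is the iron exporter. Heph and Cp are copper-containing ferroxidases that act beside the exporter, the first fixed in the membrane of enterocytes and the second mostly secreted. Slc30a10 exports manganese, Slc39a14 (ZIP14) imports manganese, iron and zinc, and Slc39a4 (ZIP4) is the apical zinc importer of the gut.

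Several of these messages are known to be controlled after transcription by iron regulatory proteins, which bind a stem and loop called the iron-responsive element. At the front of a message the element lets these proteins block translation, and behind the coding part of Tfrc it protects the message from decay. The sites are shown because, in messages known to carry such an element, the RNA level alone need not follow the protein (Fth1, Slc40a1) or transcription (Tfrc). A search of the untranslated regions of the GENCODE M21 annotation on GRCm38 looked for a C, any 5 bases, the loop CAGTGN and a following stretch in which at least 4 of 5 bases pair with the 5 before the loop, G with T allowed. Matches were found in 4 of the 10 genes, against 0.986% of all genes with a 5′ untranslated region and 4.15% of those with a 3′ untranslated region. A match is a description of the sequence and not evidence of binding. In the sequences, read 5′ to 3′ along the message, capitals mark the loop.

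Fth1, 5′ untranslated region, chr19:9982732-9982760, plus strand: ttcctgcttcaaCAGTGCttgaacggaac
Slc40a1, 5′ untranslated region, chr1:45925465-45925493, minus strand: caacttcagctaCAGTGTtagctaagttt
Tfrc, 3′ untranslated region, chr16:32631219-32631247, plus strand: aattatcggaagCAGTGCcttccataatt
Tfrc, 3′ untranslated region, chr16:32631598-32631626, plus strand: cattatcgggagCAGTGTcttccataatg
Tfrc, 3′ untranslated region, chr16:32631663-32631691, plus strand: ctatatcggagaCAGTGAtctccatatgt
Tfrc, 3′ untranslated region, chr16:32631710-32631738, plus strand: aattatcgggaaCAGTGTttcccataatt
Slc11a2, 3′ untranslated region of the longest transcript, chr15:100395153-100395181, minus strand: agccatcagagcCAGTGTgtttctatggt

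All of these stems had 5 of 5 pairs except that of Slc11a2, which had 4. Tfrc held 4 copies. Of the annotated Slc11a2 transcripts, the longest, with 4415 bases, contained the match, and the next, with 3025 bases, did not.

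Each library held between 15653300 and 28066996 expected counts. Axin1 was at 33.2%, 32.2%, 29.8% and 33.1% of its WT mean in untreated, day 7, day 13 and tumour KO samples. Genes of the Y chromosome and Xist showed that day 13 compared 3 WT males with 3 KO females, so sex and genotype cannot be told apart there. At day 7 the WT mice were 3 females and the KO mice 1 male and 2 females. Untreated colon had 2 males and 1 female in WT and 3 males in KO. Tumours had 2 males and 1 female in each genotype. In KO, day 13 and untreated colon thus differed fully in sex, so sex and injury cannot be told apart there. The other comparisons of injured with untreated colon, and that of KO tumours, also differed in sex makeup. A few colon libraries stood apart in their tissue makeup: WT day 7 replicate 2 in smooth muscle genes, WT day 13 replicate 3 and KO day 13 replicate 1 in squamous epithelium genes, and KO untreated replicate 3 in absorptive colonocyte genes. Tumour libraries varied too. Summed colonocyte markers were at 1849 to 7237 CPM in WT tumours and summed squamous markers at 90.5 to 676 CPM in KO tumours. The fits without the libraries that stood apart left out no tumour library. Illumina sample numbers are a part of the library names. Within colon they were repeated in 4 libraries (KO day 7 replicate 3 and replicate 2 of WT day 7 and of both untreated groups). The fits without the repeated sample numbers left out these 4. The tumour libraries had the numbers 9 to 14, which colon libraries had too. Whether tumours and colon were sequenced together was not given. If they were not, run and tissue cannot be told apart in the comparisons of tumours with colon.

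Compared per length, in TPM (a level scaled for transcript length and library size) averaged over the 24 libraries, Fth1 was the most abundant of the 10 at 3007 TPM and did not overlap the others in any library. Slc39a4 followed at 159 TPM, Slc40a1 at 133, Tfrc at 73.5, Slc11a2 at 59.3, Heph at 41.2, Cp at 25.3, Slc39a14 at 17.1, Slc30a10 at 9.85 and Cybrd1 at 0.872. The library ranges of neighbours in this order overlapped below Fth1. The widest spread between group means, taken in CPM (counts scaled to library size), was that of Slc30a10 (1235-fold), then Cp (27.6-fold) and Slc40a1 (13.8-fold). The smallest was that of Slc39a14 (1.24-fold).

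Slc11a2, the apical iron importer (chr15:100387898-100425072, minus strand), was higher in KO than in WT in all 3 colon conditions. In untreated colon it stood at 57.5, 54.4 and 46.9 CPM in WT and at 135, 168 and 108 CPM in KO. At day 7 of DSS the WT libraries had 45.3, 68.8 and 64.6 CPM and the KO libraries 77.2, 260 and 101 CPM. At day 13 they had 52.7, 62.6 and 49.0 CPM in WT and 325, 122 and 229 CPM in KO. No KO library overlapped WT in any of these conditions, and the KO means were 2.58, 2.45 and 4.12 times those of WT. Of all genes with a mean of at least 2 CPM, KO lay above WT without overlap in 11.1%, 15.2% and 14.7%, in the same order. KO lay below WT without overlap in 7.82%, 12.4% and 11.1%. Lack of overlap was thus not rare, here and for the genes below. As log2 fold changes the Slc11a2 differences of KO from WT were 1.34 ± 0.39 (SE, 3 against 3 libraries), 1.3 ± 0.39 and 2.01 ± 0.40.

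Within a sex, untreated males had 54.4 to 57.5 CPM in WT and 108 to 168 CPM in KO. Day 7 females had 45.3 to 68.8 CPM in WT and 101 to 260 CPM in KO. This order was fixed by the lack of overlap above and is no further support. At day 13 neither sex was present in both genotypes. Without the libraries that stood apart the day 13 difference was 1.59 ± 0.50. Against untreated colon Slc11a2 passed no test after injury: the log2 changes were 0.17 ± 0.39 in WT and 0.12 ± 0.39 in KO at day 7 (adjusted p of 0.796 and 0.881), and 0.05 ± 0.39 and 0.72 ± 0.39 at day 13 (adjusted p of 0.956 and 0.722). In tumours the genotypes overlapped, at 42.9, 80.7 and 75.4 CPM in WT and 69.5, 95.7 and 76.2 CPM in KO. Their difference was 0.27 ± 0.26.

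**Figure D1:**
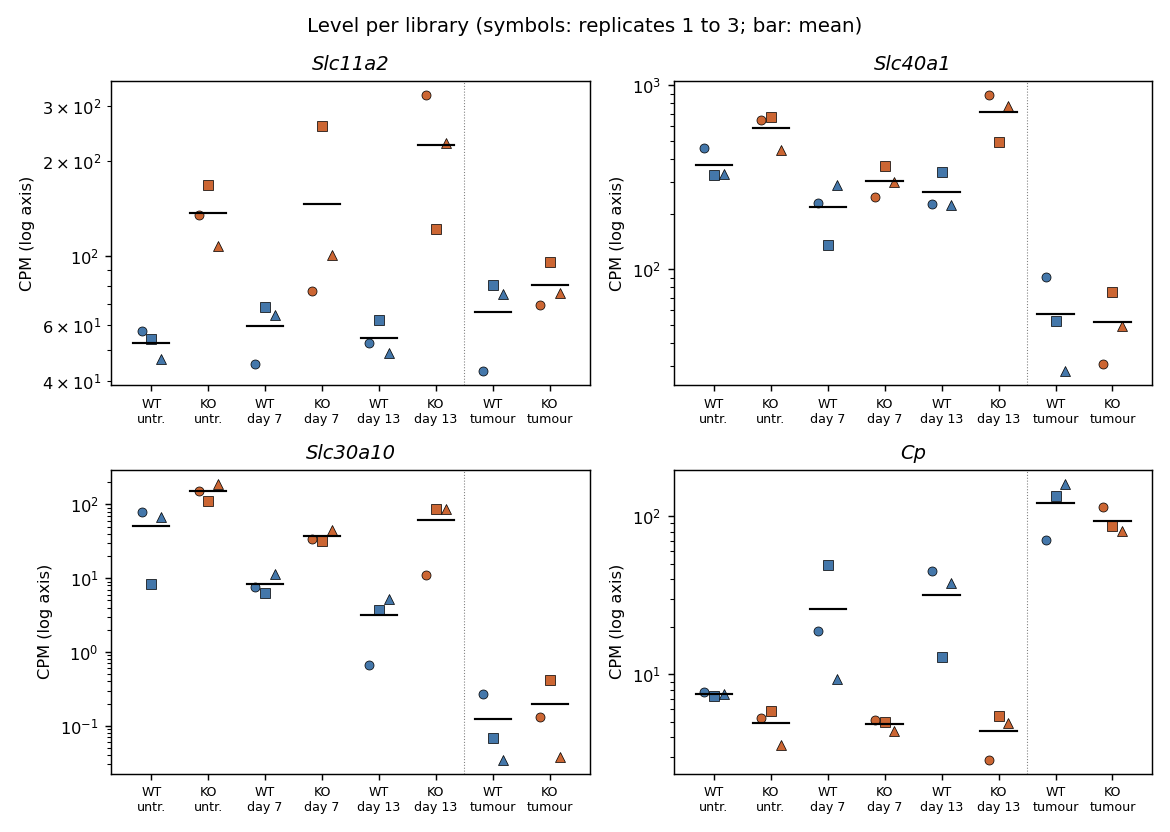
Level per library in CPM (log axis) of Slc11a2, Slc40a1, Slc30a10 and Cp in the 8 groups, with 1 symbol per library (3 in each group) and a bar at the group mean; WT is blue and KO orange, and the dotted line sets tumours apart from colon. Slc11a2 and Slc30a10 lie higher in KO than in WT at each colon stage and Cp lower, while the genotypes overlap in tumours, where Slc30a10 falls below 1 CPM and Cp lies between 71.0 and 161 CPM.

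The tables also give the mean length of the Slc11a2 transcripts in each library, weighted by RSEM's estimate of their shares. This feature was picked after its values were seen and is given without a test. In untreated colon the mean length overlapped, at 2160 to 2539 bases in WT and 2296 to 2553 bases in KO. At day 7 it was 2743 to 2973 bases in WT and 1964 to 2309 bases in KO, and at day 13 it was 2545 to 3310 bases in WT and 2298 to 2406 bases in KO. Tumours had 3365 to 3424 bases in WT and 2600 to 3292 bases in KO. KO libraries thus had the lower mean length at day 7, at day 13 and in tumours. Of all genes with a mean of at least 2 CPM, 5.05%, 4.54% and 7.89% showed KO below WT without overlap in these 3 comparisons. In all of them 3 genes (0.0216%) did so. This set of comparisons and its direction were taken from the Slc11a2 values themselves, with untreated colon left out. The share of 0.0216% is thus no measure of how unusual Slc11a2 is, and nothing is read from it. At day 13 sex and genotype cannot be told apart. The tables do not give the transcripts' own counts, so the shares of the form with the iron-responsive element and of the form without it were not measured here.

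**Figure D2:**
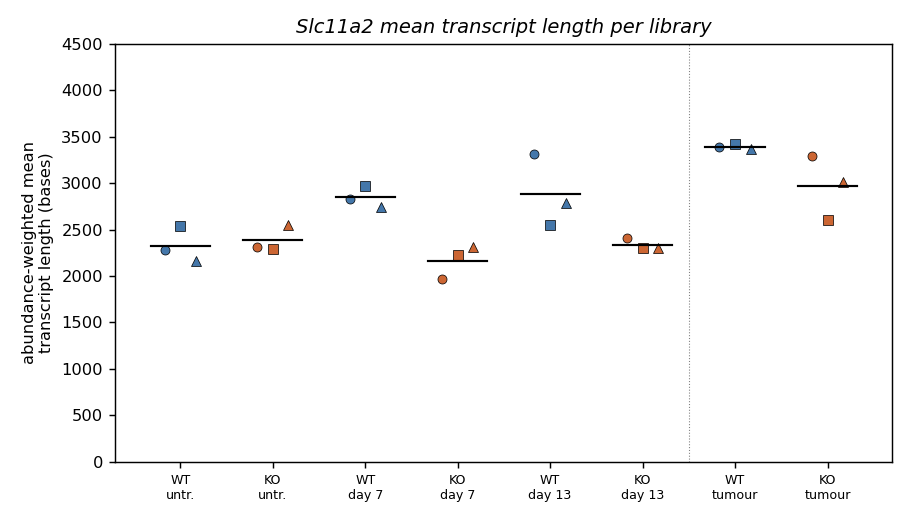
Abundance-weighted mean transcript length of Slc11a2 in bases, per library, in the 8 groups (WT blue, KO orange, bar at the group mean, linear axis from 0). The WT libraries lie above the KO libraries at day 7, at day 13 and in tumours, and the genotypes overlap in untreated colon.

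Cybrd1, the ferrireductase (chr2:71117923-71142926), was barely detected, at 1.39 to 5.67 CPM over all libraries. At day 13 WT had 2.68, 2.39 and 4.25 CPM and KO 1.39, 2.03 and 2.04 CPM. These groups did not overlap and differed by -0.81 ± 0.37 on the log2 scale. No tested comparison of Cybrd1 with untreated colon passed the threshold of an adjusted p of 0.05 in edgeR.

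Tfrc (chr16:32608920-32632794), which brings in transferrin-bound iron and is high in dividing cells, had its lowest group means in untreated colon. WT libraries had 131, 141 and 135 CPM untreated, 347, 146 and 307 CPM at day 7 and 315, 203 and 162 CPM in tumours. KO libraries had 95.1, 86.9 and 179 CPM untreated, 158, 299 and 182 CPM at day 7 and 276, 163 and 153 CPM in tumours. The WT libraries at day 7 and in tumours lay above all untreated WT libraries. Of all genes with a mean of at least 2 CPM, 17.6% and 33.7% did so. The KO libraries of Tfrc overlapped. None of the changes passed with all libraries: at day 7 they were 0.96 ± 0.34 in WT (adjusted p = 0.0642) and 0.85 ± 0.34 in KO (adjusted p = 0.117), and in tumours 0.81 ± 0.35 (adjusted p = 0.0658) and 0.77 ± 0.35 (adjusted p = 0.0774). Without the libraries that stood apart all of these passed, at 1.25 ± 0.22 and 1.26 ± 0.23 at day 7 (adjusted p of 0.00344 and 0.00385) and 0.81 ± 0.27 and 1.19 ± 0.32 in tumours (adjusted p of 0.0213 and 0.00617). So did WT day 13 (0.79 ± 0.22, adjusted p = 0.0391). Single calls were also made by DESeq2 for day 7 in WT, with only the groups compared for WT tumours, and without WT day 7 replicate 2, KO untreated replicate 3 or WT tumour replicate 3.

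Slc40a1, the iron exporter (chr1:45908068-45926523, minus strand), had its largest genotype difference at day 13, where sex and genotype cannot be told apart. There it had 226, 339 and 223 CPM in WT and 886, 489 and 773 CPM in KO, without overlap. The KO mean was 2.73 times that of WT, a log2 difference of 1.42 ± 0.28, and 1.15 ± 0.27 without the libraries that stood apart. In untreated colon the libraries had 454, 325 and 329 CPM in WT and 650, 669 and 443 CPM in KO, which overlapped (0.64 ± 0.28). At day 7 they overlapped too, with 230, 136 and 288 CPM in WT and 248, 363 and 299 CPM in KO (0.49 ± 0.28). The change from untreated colon to day 13 differed between the genotypes by 0.77 ± 0.39, which did not pass in edgeR.

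The exporter fell at day 7 in KO, by 0.92 ± 0.28 (adjusted p = 0.0418). In WT the change was -0.77 ± 0.28 (adjusted p = 0.0703), which passed in DESeq2 (adjusted p = 0.0453) and without WT day 7 replicate 3 (-1.02 ± 0.31, adjusted p = 0.0423). The responses of the genotypes differed by -0.15 ± 0.39. The KO call ended when KO untreated replicate 1 or 2 or any of the KO day 7 libraries was left out (log2 change -1.07 to -0.80, adjusted p of 0.0578 to 0.155). In tumours Slc40a1 had 90.5, 52.7 and 28.0 CPM in WT and 30.6, 75.6 and 49.5 CPM in KO, all below every colon library. Its means were 15.5% and 8.84% of those of untreated colon. The log2 changes of -2.63 ± 0.39 in WT (adjusted p = 3.35e-05) and -3.44 ± 0.41 in KO (adjusted p = 4.17e-06) passed the test in each of 14 alternative analyses.

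Heph, the membrane ferroxidase (chrX:96455359-96574485), stayed at 124 to 187 CPM in all colon libraries but KO untreated replicate 3, which had 270 CPM. Tumours had 132, 54.2 and 30.3 CPM in WT and 28.9, 60.1 and 47.3 CPM in KO. All tumour libraries but WT replicate 1 were thus below the colon. The fall in KO was 1.98 ± 0.39 (adjusted p = 0.000452), and the WT change of -0.88 ± 0.38 did not pass (adjusted p = 0.0639). The WT change passed without WT tumour replicate 1 (-1.65 ± 0.33, adjusted p = 0.000583), and with DESeq2 or RLE size factors (-0.96 in both, adjusted p of 0.0291 and 0.0465). These responses differed by -1.10 ± 0.54.

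Cp, the secreted ferroxidase (chr3:19957054-20009145), which is also an acute-phase protein of the liver and is made by macrophages, rose with injury in WT, and its changes in KO did not pass. Untreated WT colon had 7.69, 7.28 and 7.56 CPM, day 7 had 18.9, 49.1 and 9.37 CPM and day 13 had 44.8, 12.8 and 37.9 CPM. KO colon had 5.31, 5.83 and 3.58 CPM untreated, 5.16, 5.03 and 4.39 CPM at day 7 and 2.88, 5.42 and 4.93 CPM at day 13. The KO libraries were below the WT libraries at each stage, as were 7.82%, 12.4% and 11.1% of all genes with a mean of at least 2 CPM. The log2 differences of KO from WT were -0.64 ± 0.51, -2.42 ± 0.53 and -2.89 ± 0.54.

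In WT the change from untreated colon was 1.79 ± 0.52 at day 7 (adjusted p = 0.0296) and 2.09 ± 0.52 at day 13 (adjusted p = 0.0388), and in KO 0.02 ± 0.52 and -0.16 ± 0.52 (adjusted p of 0.989 and 0.973). The responses of the genotypes differed by -1.78 ± 0.73 at day 7 and -2.25 ± 0.73 at day 13, and neither difference passed in edgeR. All comparisons with untreated colon, here and below, share libraries with the difference by which the genes were chosen. For Cp, as for Slc11a2 and Slc30a10, the p-values are thus not independent of that choice and serve as a description only. The day 7 call of Cp ended without WT day 7 replicate 2, the library rich in smooth muscle, or any of the untreated WT libraries (0.89 to 1.80, adjusted p of 0.0785 to 0.186). The day 13 call ended without WT day 13 replicate 1 or 3 or any of the untreated WT libraries (1.79 to 2.11, adjusted p of 0.0864 to 0.163). In tumours Cp was high in both genotypes, at 71.0, 134 and 161 CPM in WT and 114, 86.5 and 80.8 CPM in KO, above every colon library. The rises of 4.09 ± 0.54 in WT (adjusted p = 9.34e-06) and 4.32 ± 0.55 in KO (adjusted p = 7.43e-06) passed in each of 14 alternatives.

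Some markers of cells other than epithelium were also lower in KO colon. Of 10 monocyte and macrophage markers, 7 were lower in KO than in WT at day 13, where 1.86% of all genes were lower. That comparison set 3 WT males against 3 KO females. The summed level of these markers was 236 to 458 CPM in WT and 114 to 177 CPM in KO. Of 8 neutrophil markers 7 were lower, with sums that overlapped, at 228 to 546 CPM and 190 to 269 CPM. Of 8 fibroblast and matrix markers 2 were lower at day 13 and 6 for the mean of the colon conditions. For that mean 3.88% of all genes were lower. The fibroblast and matrix sum was 1154 to 1855 CPM in WT and 832 to 1094 CPM in KO untreated. At day 7 it was 1539 to 4793 CPM and 911 to 1326 CPM, and at day 13 1194 to 2996 CPM and 615 to 884 CPM. These sums did not overlap between the genotypes at any stage. No T cell or B cell marker passed at day 13, against 2.51% of all genes. Against untreated colon, 8 macrophage, 7 neutrophil, 7 of 7 T cell and 3 fibroblast markers were higher in WT tumours, and 9, 7, 1 and 6 in KO tumours. Of all genes 27.6% were higher in WT tumours and 26.4% in KO tumours. A single fibroblast marker was lower in each, and of 7 B cell markers 3 and 2 were lower, beside 21.2% and 23.5% of all genes. None of these markers was at 0 in every library of a group, except 1 neutrophil gene in untreated colon of each genotype. Their part in the Cp levels was not tested.

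Fth1, the ferritin heavy chain (chr19:9980598-9985098), has processed copies elsewhere in the genome, so its counts are uncertain where reads fit several places. Its group means differed at most 1.79-fold. Untreated colon had 1660, 1895 and 1442 CPM in WT and 2011, 2108 and 2114 CPM in KO. At day 7 the order was the opposite, with 1471, 2018 and 1797 CPM in WT and 1265, 1239 and 1281 CPM in KO. The genotypes did not overlap at either stage, and the log2 differences were 0.29 ± 0.17 and -0.48 ± 0.17. At day 13 they overlapped.

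Against untreated colon, Fth1 in KO fell by 0.69 ± 0.17 at day 7 (adjusted p = 0.0149) and by 0.78 ± 0.19 in tumours (adjusted p = 0.00206). In WT it changed by 0.08 ± 0.17 and -0.15 ± 0.19 (adjusted p of 0.772 and 0.514). The day 7 responses of the genotypes differed by -0.77 ± 0.24 and the tumour responses by -0.63 ± 0.26, and neither difference passed in edgeR. The day 7 call in KO ended without KO day 7 replicate 1 or 2 (-0.69 to -0.67, adjusted p of 0.0502 to 0.0529).

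Slc30a10, the manganese exporter (chr1:185454848-185468762), varied most of the 10 genes. Its promoter is shown because the level of its RNA spans the whole range from abundant to nearly absent, and that of Cp because it moved the opposite way. The RefSeq table of promoters on GRCm38.p6 held 8 entries for 5 of the 10 genes: Slc30a10, Cp, Cybrd1, Tfrc and Fth1. Capitals mark matches to the cores of the metal response element (TGCACNC or TGCGCNC) and of the hypoxia response element (ACGTG or GCGTG), searched on both strands in the 250 bases before the start.

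Slc30a10, chr1:185454598-185454847, plus strand: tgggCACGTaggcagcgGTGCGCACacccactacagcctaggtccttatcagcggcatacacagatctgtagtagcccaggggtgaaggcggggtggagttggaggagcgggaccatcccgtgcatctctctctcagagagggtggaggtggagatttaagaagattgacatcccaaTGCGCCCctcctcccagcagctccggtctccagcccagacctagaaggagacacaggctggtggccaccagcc
Cp, chr3:19956804-19957053, plus strand: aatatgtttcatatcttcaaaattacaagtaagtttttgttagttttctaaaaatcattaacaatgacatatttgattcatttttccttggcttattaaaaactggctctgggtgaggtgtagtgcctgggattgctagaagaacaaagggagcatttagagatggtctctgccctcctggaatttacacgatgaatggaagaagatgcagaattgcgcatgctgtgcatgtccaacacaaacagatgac

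The Slc30a10 promoter held 3 matches to the metal cores, 2 of them the same bases read on opposite strands with a shift of 1 base, and 1 match to the hypoxia cores. Of all promoters of this length 21.4% held a metal core and 1.26% held 3 or more, and 38.6% held a hypoxia core. The Cp promoter held none of these letters.

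In untreated colon Slc30a10 had 77.9, 8.24 and 66.5 CPM in WT and 152, 110 and 192 CPM in KO. At day 7 it had 7.52, 6.33 and 11.4 CPM in WT and 33.7, 32.3 and 44.6 CPM in KO. At day 13 it had 0.671, 3.68 and 5.29 CPM in WT and 11.2, 87.2 and 86.3 CPM in KO. The KO libraries were above the WT libraries at each stage, with means 2.97, 4.39 and 19.2 times as high. WT untreated replicate 2 and KO day 13 replicate 1 were far below the other libraries of their groups. The log2 differences of KO from WT were 1.55 ± 0.76, 2.15 ± 0.79 and 4.22 ± 0.87.

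The manganese exporter fell with injury in WT, where the log2 change was -2.60 ± 0.80 at day 7 (adjusted p = 0.0393) and -3.97 ± 0.86 at day 13 (adjusted p = 0.0229). In KO the changes were -2.01 ± 0.77 and -1.30 ± 0.75 and did not pass (adjusted p of 0.103 and 0.741, and 0.0136 for day 7 with only the groups compared in the fit). All KO libraries of day 7 and day 13 were nonetheless below the untreated KO libraries. Of all genes with a mean of at least 2 CPM, 17.7% and 7.86% were so. The Slc30a10 responses of the genotypes differed by 0.59 ± 1.06 at day 7 and 2.66 ± 1.10 at day 13, and neither difference passed in edgeR. The WT day 7 call ended without any of the WT day 7 libraries or without WT untreated replicate 1 or 3 (-2.88 to -2.16, adjusted p of 0.0608 to 0.135). The WT day 13 call ended without WT day 13 replicate 1 or WT untreated replicate 1 or 3 (-3.73 to -3.48, adjusted p of 0.0733 to 0.103).

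In tumours Slc30a10 was nearly absent, with 7, 2 and 1 counts in the WT libraries and 4, 11 and 1 counts in the KO libraries, or 0.241% and 0.129% of the mean CPM of untreated colon. It was too low to be tested between tumours of the 2 genotypes. Its log2 changes of -8.61 ± 1.13 in WT (adjusted p = 9.13e-06) and -9.53 ± 1.11 in KO (adjusted p = 3.58e-06) passed in each of 14 alternatives, though the size of such a fitted change rests on few tumour counts.

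In colon, 0 of 12 absorptive colonocyte markers passed between the genotypes at any stage in edgeR. Of all genes only 0.011%, 0.00552% and 2.51% passed in untreated colon, at day 7 and at day 13. The markers' median log2 differences of KO from WT were -0.11, -0.18 and 0.35 in the same order. A list of 10 small intestinal and proximal absorptive markers had medians of 2.07, -0.67 and 0.41. Its summed level was 98.5 to 132 CPM in WT and 276 to 972 CPM in KO in untreated colon, 15.2 to 156 CPM and 79.3 to 88.5 CPM at day 7, and 34.1 to 57.4 CPM and 199 to 303 CPM at day 13. Of these 10 genes 1 passed at day 13: S100g, which encodes the calcium-binding protein calbindin-D9k and is named after its values were seen. With 3.49 to 8.68 CPM in WT and 112 to 213 CPM in KO, it made up most of the KO sum there. The summed level of the list overlapped between the genotypes at day 7, where the WT libraries ranged widely, from 15.2 to 156 CPM. Against untreated colon, 8 of the 12 colonocyte markers fell in WT tumours and 12 in KO tumours, and all 7 smooth muscle markers fell in both. Of all genes 21.2% fell in WT tumours and 23.5% in KO tumours. Summed, the colonocyte markers were at 12667 to 15797 CPM in untreated WT and 1849 to 7237 CPM in WT tumours, and at 10945 to 29301 CPM and 909 to 2565 CPM in KO. The part of these cells in the levels of Slc11a2, Slc40a1 and Slc30a10 was not tested.

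Slc39a14, an importer of manganese, iron and zinc (chr14:70303469-70351425, minus strand), was the steadiest of the 10, at 34.0 to 58.1 CPM over all 24 libraries. The KO libraries of day 13, at 47.1, 49.1 and 45.9 CPM, were just above those of WT, at 40.3, 43.6 and 45.0 CPM. No tested comparison of this gene passed with all libraries. The day 7 change in WT passed without the libraries that stood apart (-0.46 ± 0.13, adjusted p = 0.0244) and without WT day 7 replicate 2 alone (-0.46 ± 0.14, adjusted p = 0.0487).

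Slc39a4, the apical zinc importer (chr15:76612383-76617384, minus strand), rose with injury in both genotypes. Untreated colon had 123, 86.3 and 137 CPM in WT and 101, 98.8 and 268 CPM in KO. Day 7 colon had 257, 262 and 386 CPM in WT and 274, 445 and 358 CPM in KO, above all untreated libraries of the same genotype. Of all genes with a mean of at least 2 CPM, 17.6% did so in WT and 20.7% in KO. The rises of Slc39a4 were 1.38 ± 0.35 in WT (adjusted p = 0.0176) and 1.23 ± 0.35 in KO (adjusted p = 0.0335), and they differed by -0.15 ± 0.49. At day 13 WT had 372, 291 and 189 CPM and KO 232, 231 and 196 CPM. The WT change of 1.3 ± 0.35 was just outside the threshold (adjusted p = 0.0507), and the KO change was 0.49 ± 0.35 (adjusted p = 0.818).

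The WT day 7 call of Slc39a4 ended without WT day 7 replicate 3 or WT untreated replicate 1 or 2 (1.17 to 1.42, adjusted p of 0.0564 to 0.0758). The KO call ended without KO untreated replicate 1 or 2 or KO day 7 replicate 2 or 3 (0.98 to 1.23, adjusted p of 0.0836 to 0.126). Without the libraries that stood apart both day 7 changes passed, at 1.45 ± 0.24 and 1.88 ± 0.26, and so did WT day 13, at 1.51 ± 0.24 (adjusted p = 0.00479). DESeq2 and RLE size factors also called WT day 13 (1.33 ± 0.36 in both, adjusted p of 0.00589 and 0.0476). In tumours it had 243, 235 and 128 CPM in WT and 79.0, 210 and 169 CPM in KO, and no comparison of tumours with untreated colon passed with all libraries. In WT it passed without the libraries that stood apart (0.88 ± 0.32, adjusted p = 0.032) and without WT tumour replicate 3 (1.12 ± 0.41, adjusted p = 0.0375).

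**Figure D3:**
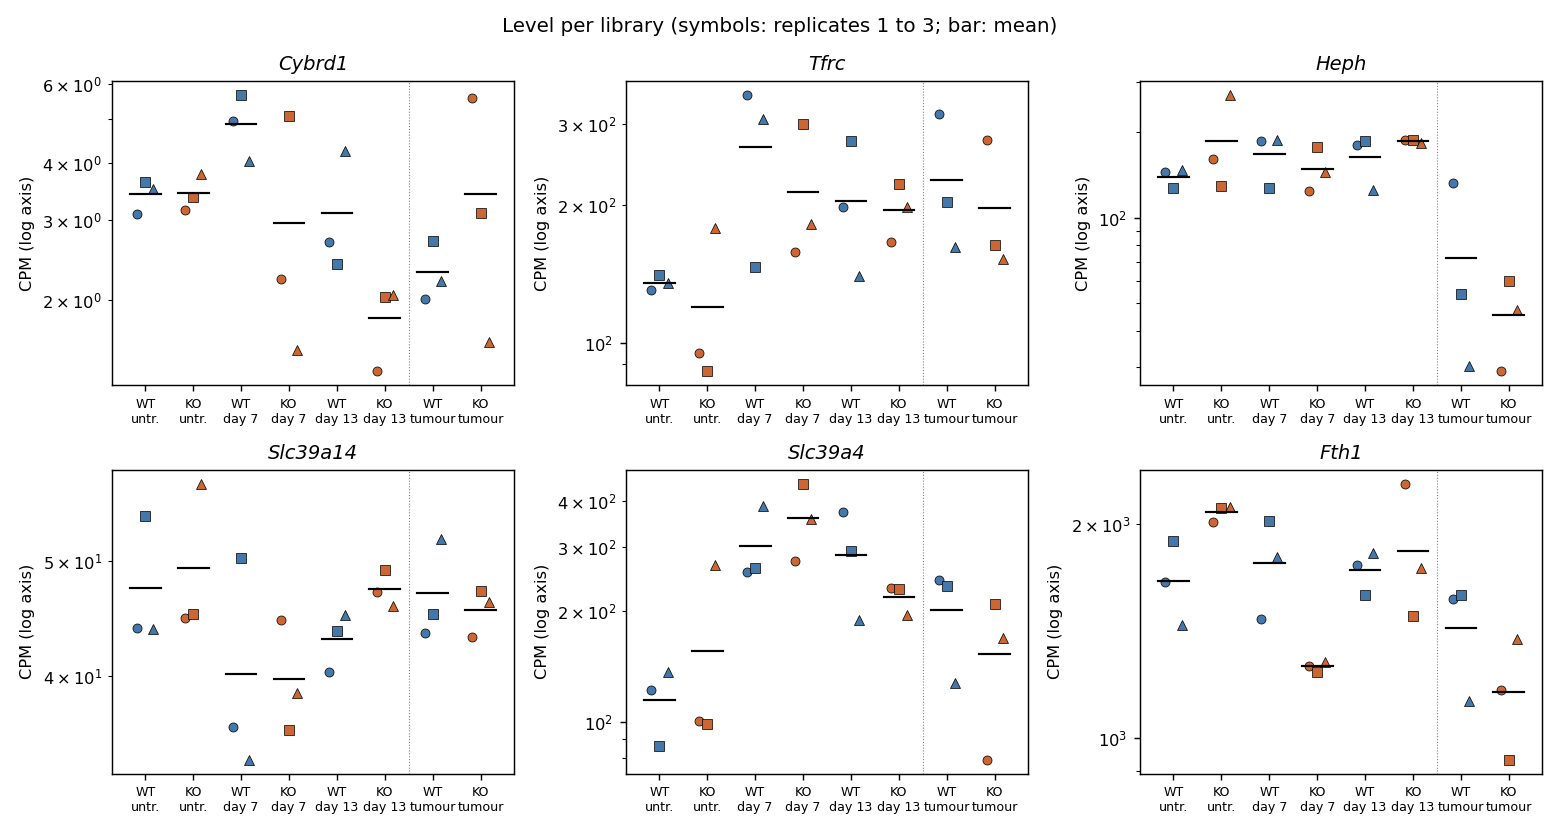
Level per library in CPM (log axis) of Cybrd1, Tfrc, Heph, Slc39a14, Slc39a4 and Fth1 in the 8 groups, with 1 symbol per library and a bar at the group mean (WT blue, KO orange). Slc39a14 stays between 34.0 and 58.1 CPM, Slc39a4 is higher at day 7 than in untreated colon of the same genotype, and Heph is lowest in tumours.

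Counted over the 10 genes, 4 were past the threshold between KO and WT at day 13, against 2.51% of all genes tested: 3 were higher, against 0.652%, and 1 lower, against 1.86%. For the mean of the 3 colon conditions the counts were the same, against 4.84%, 0.961% higher and 3.88% lower. In untreated colon and at day 7 none of the 10 passed in edgeR, against 0.011% and 0.00552% of all genes. The unadjusted p was under 0.05 for 2 and 4 of them, beside 1182 and 4887 of all 18102 genes tested. DESeq2 called 0 and 3 of them, beside 65 and 2453 of all genes. The 10 genes were chosen on differences between the genotypes, so nothing is read from these counts.

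Between tumours the same holds: 0 of the 9 members tested passed between KO and WT in edgeR or DESeq2, and 0 had an unadjusted p under 0.05. Of all 17245 genes tested there, edgeR called 0.0% and DESeq2 called 22, and 654 had an unadjusted p under 0.05. The members' log2 differences ranged from -0.68 ± 0.57 for Heph to 0.58 ± 0.47 for Cybrd1.

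**Figure D4:**
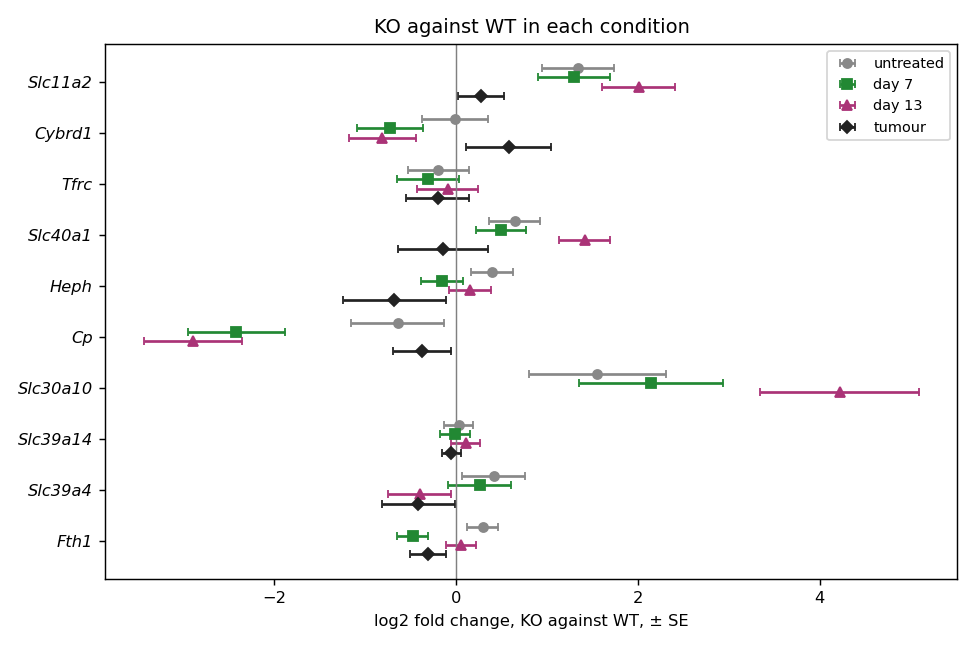
Log2 fold change of KO against WT with its SE for each of the 10 genes in untreated colon, at day 7, at day 13 and in tumours (3 against 3 libraries each; Slc30a10 was too low to test in tumours). In colon Slc11a2 and Slc30a10 lie to the right of 0 and Cp to the left, and the tumour differences of the 9 genes tested lie between -0.68 and 0.58; the values are a description, since the genes were chosen on differences between the genotypes.

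At day 7 against untreated colon, 3 of the 10 passed in WT (Slc39a4 and Cp higher, Slc30a10 lower), against 16.3% of all genes, 8.52% higher and 7.77% lower. In KO 3 passed (Slc39a4 higher, Slc40a1 and Fth1 lower), against 12.6%, 8.57% higher and 4.07% lower. At day 13, 2 passed in WT (Cp higher, Slc30a10 lower), against 4.24%, 3.21% higher and 1.03% lower, and none in KO, against 0.0276%. Cp and Slc30a10 are among the genes that led to the choice, so nothing is read from these counts. For KO at day 13 the unadjusted p was under 0.05 for 1 member, beside 1380 of all 18102 genes tested. DESeq2 called none of the members there, beside 121 of all genes. With the Y-linked expression of each library as a covariate, none of the day 7 calls and 1 of the day 13 calls were made, and without the repeated sample numbers none of either. The day 7 call of Cp also ended without the libraries that stood apart (0.89, adjusted p = 0.145), and so did that of Slc30a10 (-2.46, adjusted p = 0.0643).

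In tumours against untreated colon, 3 of the 10 passed in WT, against 48.8% of all genes (27.6% higher, 21.2% lower), and 5 in KO, against 49.9% (26.4% higher, 23.5% lower). These shares are below or near the background. In both genotypes these were Slc40a1 and Slc30a10, lower, and Cp, higher. In KO Heph and Fth1 were also lower. The comparisons of injury and of tumours share the untreated libraries of their genotype. No member's response differed between the genotypes in edgeR at day 7, at day 13 or in tumours (0.0%, 0.011% and 0.0% of all genes did). The unadjusted p was under 0.05 for 2, 2 and 1 members, beside 2487 and 2448 of 18102 genes and 1652 of 19056. DESeq2 called 1, 1 and 0 members, beside 363, 577 and 91 of all genes.

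**Figure D5:**
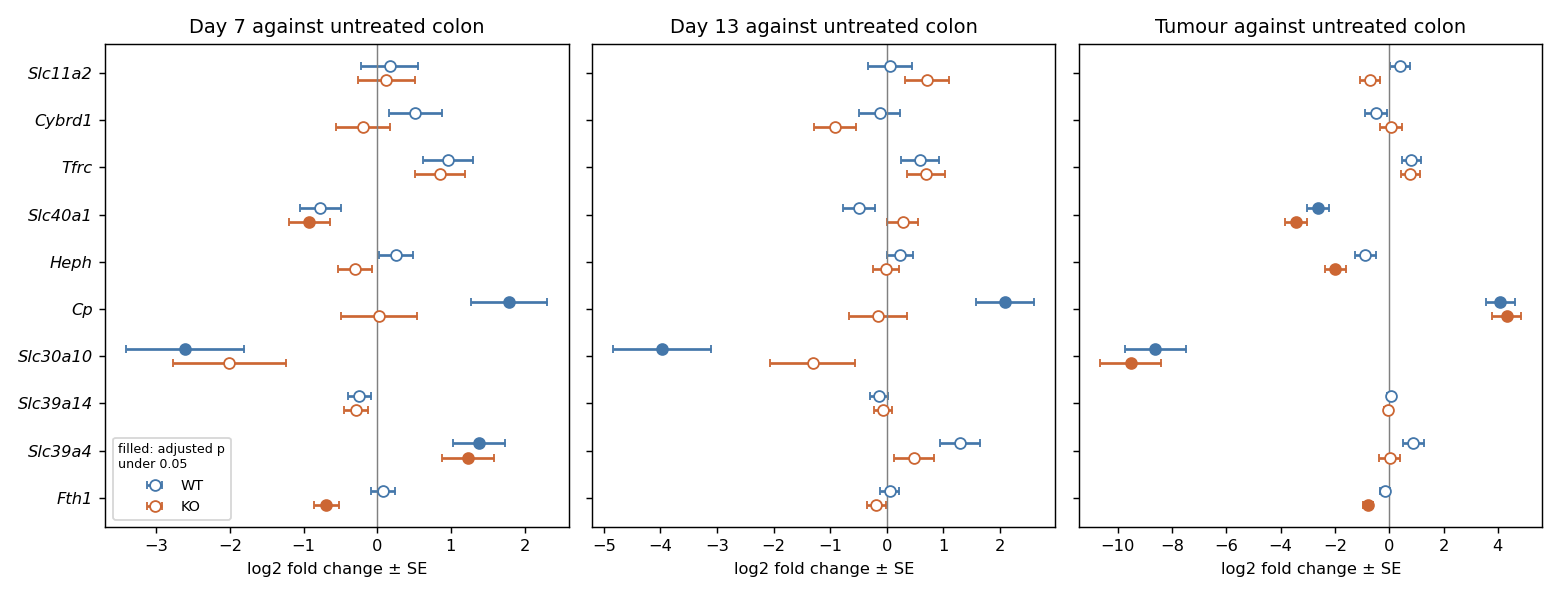
Log2 fold change against untreated colon of the same genotype with its SE, at day 7, at day 13 and in tumours, for each of the 10 genes (WT blue, KO orange, 3 against 3 libraries; filled points have an adjusted p under 0.05; the axes differ in range). In tumours Cp lies at 4.09 and 4.32 and Slc30a10 at -8.61 and -9.53, whereas Slc39a14 stays near 0 in all 6 comparisons.

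Around these 10 genes, 89 further genes of iron, heme, zinc, manganese and copper handling were listed, of which 80 to 82 could be tested in each comparison. Between the genotypes, 1 was higher and 2 were lower in KO at day 13, a share of 3.75% against 2.51% of all genes. That comparison set 3 WT males against 3 KO females. The lists were chosen with earlier results of these data known, so the p-values of these genes between genotypes serve as a description only. Ncoa4, the receptor that delivers ferritin for breakdown, was higher in KO by 0.90 ± 0.19 (adjusted p = 0.0226). Lcn2, which binds bacterial siderophores that carry iron, had a log2 difference of -3.80 ± 0.73 (adjusted p = 0.0175), with group means of 36.5 CPM in WT and 2.72 CPM in KO. Hp, the hemoglobin binder haptoglobin, had one of -5.07 ± 1.04 (adjusted p = 0.0208), with 18.4 and 0.573 CPM. The 3 calls ended without WT day 13 replicate 1 or 3 or KO day 13 replicate 1 or 3, and those of Lcn2 and Hp also without KO day 13 replicate 2 (Ncoa4 0.73 to 0.93, Lcn2 -4.51 to -3.13, Hp -6.40 to -4.31, adjusted p of 0.0581 to 0.115). They also ended with the Y-linked covariate (adjusted p of 0.279, 0.193 and 0.268 for Ncoa4, Lcn2 and Hp), with only the groups compared (0.0938, 0.117 and 0.109) and without the libraries that stood apart (0.0919, 0.0578 and 0.0743), and those of Ncoa4 and Hp without the repeated sample numbers (0.0562 and 0.0522).

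In untreated colon, at day 7 and in tumours none of the 80 or 81 other metal genes tested differed between the genotypes in edgeR. Of all genes 0.011%, 0.00552% and 0.0% did. None of the metal genes had a response that differed between the genotypes. Of all genes 0.0%, 0.011% and 0.0% had one at day 7, at day 13 and in tumours. The median log2 difference of KO from WT over these genes was -0.05 at day 13, beside -0.02 for all genes.

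With injury the ferrireductase Steap4 rose by 3.43 ± 0.57 in WT (adjusted p = 0.00206) and by 2.23 ± 0.54 in KO (adjusted p = 0.0153) at day 7. The KO call ended without KO untreated replicate 1 or 2 or KO day 7 replicate 3 (1.92 to 2.01, adjusted p of 0.06 to 0.0672). It also ended with no filter, with only the groups compared, with the Y-linked covariate and without the repeated sample numbers (1.67 to 2.21, adjusted p of 0.0527, 0.0702, 0.172 and 0.187). The zinc importer Slc39a10 rose by 1.23 ± 0.20 in WT (adjusted p = 0.00178) and by 1.48 ± 0.20 in KO (adjusted p = 0.000362). In all, 12 of the 80 rose and 3 fell in WT at day 7, a share of 18.8% against 16.3% of all genes, and 9 rose and 4 fell in KO, 16.2% against 12.6%.

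Of 4 genes tested among the metallothioneins, small proteins that bind zinc and copper, and their regulator Mtf1, 2 fell in KO at day 7. Of all genes 4.07% fell there. Mt1 changed by -2.32 ± 0.56 (adjusted p = 0.014), from a mean of 289 to 56.4 CPM, and Mt2 by -3.12 ± 0.84 (adjusted p = 0.0248). In WT neither passed, and the difference between the genotypes' responses did not pass for either. The Mt1 call ended without KO day 7 replicate 1 or 2, and the Mt2 call without any KO day 7 library or KO untreated replicate 1 or 2 (Mt1 -2.36 to -2.14, Mt2 -3.26 to -2.79, adjusted p of 0.0513 to 0.0883). Both ended with the Y-linked covariate (adjusted p of 0.0747 and 0.128) and without the repeated sample numbers (0.0929 and 0.0779), Mt1 also with only the groups compared (0.0502) and Mt2 with no filter (0.0828). Hamp, the message of the ferroportin-degrading hormone hepcidin, averaged at most 1.04 CPM in any group, and its reads are hard to tell from those of its copy Hamp2.

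At day 13, 7 of the 80 rose and none fell in WT, a share of 8.75% against 4.24%. In KO none of the 80 passed, against 0.0276% of all genes. Steap4 was again among the genes that rose in WT, at 3.63 ± 0.57 (adjusted p = 0.00742), and not without the repeated sample numbers (3.49 ± 0.73, adjusted p = 0.0604).

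Tumours differed from untreated colon in 28 genes that rose and 15 that fell in WT (52.4% of 82, against 48.8%), and in 24 that rose and 25 that fell in KO (59.8%, against 49.9%). The zinc exporter Slc30a2 rose from 1.25 to 148 CPM in WT (6.95 ± 0.45, adjusted p = 1.62e-08) and from 0.923 to 172 CPM in KO (7.60 ± 0.46, adjusted p = 9.86e-09). Mt4, a metallothionein known from squamous epithelium, rose from 0.0902 to 101 CPM in WT and from 0.203 to 101 CPM in KO (adjusted p of 4.34e-07 and 7.18e-07). The sum of 10 squamous markers was 2.30 to 20.6 CPM in untreated colon and 67.4 to 676 CPM in tumours. At day 13 it reached 5223 CPM in WT and 1279 CPM in KO, where Mt4 averaged 0.0447 and 0.172 CPM. Mt3 rose as well, from 0.692 to 76.5 CPM and from 2.30 to 87.9 CPM (adjusted p of 2.18e-05 and 0.000102).

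Slc39a8 (ZIP8), which imports manganese and zinc, rose by 2.13 ± 0.47 in WT and 1.81 ± 0.47 in KO (adjusted p of 0.00121 and 0.00368). Among the genes that fell were Steap3, an endosomal ferrireductase, with changes of -2.22 ± 0.31 and -2.15 ± 0.31 (adjusted p of 1.52e-05 and 2.35e-05). Epas1, which encodes the hypoxia factor HIF-2 alpha that drives intestinal iron uptake, changed by -1.23 ± 0.23 and -1.83 ± 0.23 (adjusted p of 0.000259 and 7.82e-06). The zinc exporter Slc30a1 changed by -0.98 ± 0.26 and -1.79 ± 0.27 (adjusted p of 0.00481 and 3.69e-05).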

How the data were processed

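Colon and tumour RNA was taken up in Trizol and sequenced as Illumina libraries, per the labels' protocols. Alignment and counting used STAR 2.7.6a with RSEM 1.3.1, and the genome build was GRCm38, as listed in the submitters' processing notes. Which annotation they used, and whether counting was stranded, was not given in these sources. Each library's deposited table holds RSEM's expected counts, TPM and mean gene lengths, per the file headers. Reads that fit several genes are split among them in such counts, so near-identical copies, overlapping genes and antisense genes cannot be told apart. The TPM values deposited by the authors were used only to order genes by level.

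Expected counts were rounded and tested with edgeR 4.0.16 (R 4.3.3): quasi-likelihood F test, TMM, default filter (minimum count 10, minimum total 15), robust estimation, Benjamini-Hochberg adjustment over all genes of a comparison, threshold 0.05. Every adjusted p is from this test unless DESeq2 is named. Colon was fitted on 18 libraries (18102 genes), tumours between genotypes on 6 (17245 genes), and tumour against colon on 24 (19056 genes). CPM were scaled by TMM over all libraries. The fits were tested on simulated data. Positions and stem-loop searches used GENCODE M21 on GRCm38, and promoters RefSeq's GRCm38.p6.

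Genotype, treatment and day in the labels set the groups. Replicates were numbered in order only. No library was a copy of another: the chi-square per gene between replicates was 16 to 197.9.

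The members and lists were chosen with earlier results of these data known. Named genes were the 10 members, Axin1, S100g as the marker that passed at day 13, and genes of the metal lists among the up to 4 per list and comparison with the smallest p that passed; the genes nearest in pattern were the 5 with the highest Pearson correlation. Alternatives were DESeq2 1.42.0, RLE size factors, no filter, a stricter filter (1 CPM in 6 libraries, 3 for tumours), fits on the compared groups alone, Y-linked expression as a covariate, and fits without the 4 colon libraries with repeated Illumina sample numbers, without the libraries that stood apart, and without each library in turn. Proteins were not used here.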

Additional observations from a re-analysis of the deposited data

How the results depend on the processing

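The falls of Slc40a1 and Slc30a10 and the rise of Cp in tumours, in both genotypes, and the falls of Heph and Fth1 in KO tumours kept their call in all 14 alternatives each. Calls within colon were less stable, and the cause was not tested. Members called between KO and WT at day 13 numbered 4 in edgeR and 0 with the Y-linked covariate, with only the groups compared in the fit, or without the libraries that stood apart. For the mean of colon conditions they went from 4 to 0 without the repeated sample numbers. At day 7 between genotypes DESeq2 called 3 against 0. For day 7 against untreated colon in WT (3), DESeq2 gave 5, no filter 1, only the groups compared 1, and the Y-linked covariate and the fit without the repeated sample numbers 0. In KO (3), no filter gave 1, and the Y-linked covariate and the fit without the repeated sample numbers 0. For day 13 in WT (2), the Y-linked covariate gave 1, no filter, only the groups compared and the fit without the repeated sample numbers 0, and the fit without the libraries that stood apart 4. That last fit gave 5 in place of 3 for tumours in WT. DESeq2 called 1 member each for the genotype difference of the day 7 and day 13 responses, against 0. Leaving out each library gave 0 to 4 members between genotypes at day 13, 0 to 1 at day 7, 4 to 5 for the mean, 0 to 3 for day 7 in WT and 0 to 4 in KO, 0 to 2 for day 13 in WT, 0 to 1 for the genotype difference at day 13, 3 to 5 for tumours in WT and 5 to 6 in KO, and 0 elsewhere. No called change of a member or of a named metal gene took the opposite sign under any alternative.

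Over all genes DESeq2 called more than edgeR: between genotypes 65 against 2 untreated, 2453 against 1 at day 7, 1337 against 455 at day 13, 2467 against 877 for the mean and 22 against 0 in tumours. For day 13 against untreated colon it called 1952 against 767 in WT and 121 against 5 in KO. For the genotype differences of the response it called 363 against 0 at day 7, 577 against 2 at day 13 and 91 against 0 in tumours. No paired analysis was possible because the labels give no replicate numbers and the numbers used here follow only the order of the samples. The order of the members by level was the same with CPM per effective length. With 1 to 11 counts per tumour library, Slc30a10 could not be compared between tumours.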

Other observations

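The genes whose levels followed those of the members most closely are given as a description, with Pearson's r of log2(CPM + 1) over the 24 libraries among 12839 genes, and over the 18 colon libraries. The libraries share their conditions, so r reflects the differences between groups, tumour against colon above all. For Slc11a2 the nearest genes were Rab11fip1 (0.732, and 0.777 in colon), Nln (0.73 and 0.742), Apoc2 (0.722 and 0.735), Slc10a3 (0.715 and 0.802) and Ncoa4 (0.698 and 0.869), the last a gene of ferritin turnover. For Slc30a10 they were Luc7l2 (0.916 and 0.815), Araf (0.906 and 0.81), Retsat (0.904 and 0.773), Dpyd (0.903 and 0.769) and Sirt5 (0.89 and 0.763). For Cp they were Pilra (0.979 and 0.948), Clec5a (0.973 and 0.96), Pla1a (0.972 and 0.932), Tulp3 (0.97 and 0.911) and Inhba (0.97 and 0.942). Pilra and Clec5a are receptors of myeloid cells. Among the members, the r of Slc11a2 with Slc40a1 was 0.459 over all libraries and 0.737 in colon, and that of Cp with Slc40a1 was -0.925 and -0.757.

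Copper handling, which Heph and Cp depend on, was listed with 10 genes. None of them passed between KO and WT in any condition or with injury in either genotype in edgeR. Of all genes 0.011% passed between the genotypes untreated, 0.00552% at day 7, 2.51% at day 13 and 0.0% in tumours. With injury 16.3% and 12.6% passed at day 7 and 4.24% and 0.0276% at day 13, in WT and KO. In tumours the copper chaperone Atox1 rose by 0.86 ± 0.18 in WT and 0.68 ± 0.18 in KO (adjusted p of 0.000659 and 0.00433), and Ccs, the chaperone of superoxide dismutase, changed by -0.55 ± 0.14 and -0.87 ± 0.14 (adjusted p of 0.00409 and 9.26e-05).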
